A study of Mus musculus with 6 samples.

Results

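The cytosolic ribosome of a cell is built of a small and a large subunit. The large subunit holds the site where peptide bonds form, the tunnel through which the new chain leaves, and a flexible stalk that recruits the translation factors. Its proteins, whose genes are named Rpl, are made in nearly every cell in matched amounts. Their messenger RNAs usually begin with a run of pyrimidines, the 5′ terminal oligopyrimidine tract, through which the mTOR pathway and the RNA-binding protein Larp1 control their translation. In brain they are plentiful in neurons and glia alike.

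The large subunit genes were taken as those whose symbol is Rpl or Rplp followed by a number, with at most 1 letter and 1 further digit, on rows whose annotation names exactly 1 gene. Each gene was represented by its brightest row over all arrays. The rule found 42 genes, on 64 rows, out of 22180 genes with a row of their own. Of these, 35 were proteins of the standard large subunit (called core here), 5 were paralogs (Rpl3l, Rpl7l1, Rpl10l, Rpl22l1 and Rpl39l), and 2, Rpl6l and Rpl32l, were copies of a core gene that share its name. Rpl6l is a pseudogene in RefSeq. A further 9 large subunit genes (Rpl10, Rpl12, Rpl13a, Rpl23, Rpl24, Rpl31, Rpl35a, Rpl36 and Rpl36a) were named here by rows with several genes only and were not analysed.

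RNA was measured on 6 Affymetrix whole-transcript arrays, 3 of mice given ethanol as newborns and 3 of mice given saline. All were C57BL/6J males. Ethanol, 2.5 g/kg in 0.15 M NaCl, or saline was injected under the skin on postnatal days 4 and 7, 2 times a day with 2 hours between. The RNA on an array was a pool of 3 mice, so the values give the spread between pools, not between animals. The age at collection was 21 days in the sample labels and 70 days in the treatment protocol. The comparison asked whether the neonatal exposure left a lasting difference in expression. All values are log2 expression values, on which a difference of 1 is a doubling.

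The tissue was labelled whole hippocampus. Of 12 listed markers of hippocampal pyramidal and granule neurons 11 were measured, with a median level of 6.47 against 7.10 for the median gene, and those of cerebellar neurons (10 of 12 measured) had a median level of 11.52. Levels of different genes rest on different probes and do not rank their transcripts. Whether the pools held hippocampus alone was not tested. In whole tissue, fewer cells of a type and less RNA per cell cannot be told apart. Array medians over all 41345 rows lay between 6.55 and 6.66.

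The starts of some of the genes discussed below are shown for the pyrimidine tract that marks this family. The printed starts were selected, so the share of them with a run is not that of the family. Each line gives the 30 bases around the start annotated by RefSeq on mouse build GRCm38.p6, 15 on each side, from 5′ to 3′ on the gene's strand, with the longest run of C and T in capitals. The first 5 hold a run of 8 or more, and Rplp0 and Rpl3l are shown as genes without one.
Rpl34, chr3:130730323-130730352, minus strand: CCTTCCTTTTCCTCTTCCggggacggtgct
Rpl38, chr11:114668565-114668594, plus strand: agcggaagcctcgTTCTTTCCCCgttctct
Rplp2, chr7:141447636-141447665, plus strand: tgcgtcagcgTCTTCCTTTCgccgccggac
Rpl22l1, chr3:28805493-28805522, plus strand: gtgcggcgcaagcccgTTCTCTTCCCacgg
Rpl39, chrX:37085208-37085237, minus strand: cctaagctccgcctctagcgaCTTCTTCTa
Rplp0, chr5:115559452-115559481, plus strand: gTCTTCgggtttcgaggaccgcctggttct
Rpl3l, chr17:24727811-24727840, plus strand: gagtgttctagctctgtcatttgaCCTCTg

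The tracts differed in length and in place. The run was 18 bases long in Rpl34 and 8 in Rpl39, where it lay downstream of the annotated start as in Rpl22l1, and 5 in both Rplp0 and Rpl3l. In Rpl34 the run began at the first base printed, so it lay mostly upstream of the annotated start and may be longer than shown. Rpl34 and Rpl3l each had a further annotated start that is not printed. Annotated starts can lie some bases from the start used in the cell, so a window without a tract does not show that the messenger RNA lacks one. Among the 42 genes, 31 had a start in the table, 5 of them more than 1, which gave 36 windows. A run of 8 or more was present in 44.4% of these windows, against 12% of all 32851 annotated windows. Over the longer window of 250 bases before and 50 bases from the start on, and on both strands, CTTTCC (which can lie inside a pyrimidine run) was present in 47.2% of the large subunit windows and 26.6% of all windows. CCGGAAG, the core bound by ETS factors, was present in 38.9% and 8.86%, and AAGATGG, the core bound by Yy1, in 8.33% and 6.34%. These shares describe letters in a window. The run minimum and the motifs were chosen with the sequences in view. The 15 genes with a run of 8 or more had a median difference of 0.10 between ethanol and saline, with 13 higher in ethanol, and the 16 with a window but no such run had 0.03, with 11 higher. No test was made of that split.

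Most large subunit genes had slightly higher values in the ethanol pools. The fitted difference was above 0 for 34 of 42 genes, with a median of 0.10 on the log2 scale, a ratio of 1.07. The largest was 0.26 ± 0.11 (log2 difference ± SE, 3 arrays against 3) for Rpl3, a ratio of 1.20, and the lowest -0.30 ± 0.24 for Rplp2. Over all 22180 genes, 57.2% had a difference above 0 and the median was 0.02; over all rows the share was 50.7%. None of the 42 genes passed the test: limma called 0 at an adjusted p under 0.05, with adjusted p from 0.857 to 0.994, as it called 0% of all rows. At an unadjusted p under 0.05 there was 1 gene higher, Rpl34, and 1 lower, Rpl3l, where the background over all genes was 1.2% higher and 1.98% lower, and over all rows 1.97% and 3.57%. Every ethanol array lay above every saline array for 4 genes (Rpl6, Rpl15, Rpl23a and Rpl34), beside a background of 5.74% of genes and 5.06% of rows. For Rpl3l alone every ethanol array lay below every saline array, beside 4.72% of genes and 6.01% of rows.

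The direction went with brightness. All 18 large subunit genes in the top bin, when all genes were split by brightness into 10 equal bins, had differences above 0, with a median of 0.10, and so had 92.7% of the other 2200 genes of that bin, with a median of 0.08. Outside it, 16 of 24 were above 0, with a median of 0.06. Among the 9 genes at or below the median of all rows the count was 4, with a median of -0.04, and the 4 with the lowest differences (Rplp2, Rpl3l, Rpl30 and Rpl10l) were all in this dim range. With quantile normalization 31 of 42 genes were above 0 with a median of 0.06, and in the brightest bin 13 of 18, beside 62% of the other bright genes. After cyclic loess, which evens out such trends, the counts were 29 of 42 and 12 of 18, beside 53.9%, with a median over the 42 genes of 0.05.

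**Figure D1:**
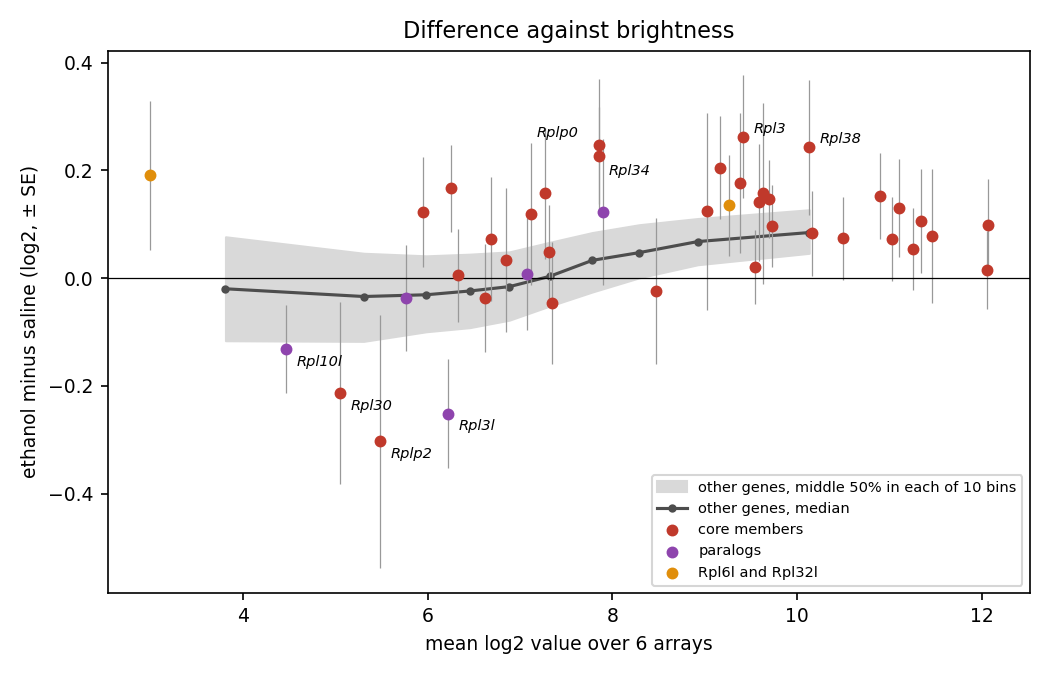
Ethanol minus saline difference (log2, error bars ± SE) of each large subunit gene against its mean log2 value, with the median (line) and middle 50% (band) of the other genes in 10 equal bins of brightness. The line lies between -0.03 and -0.02 in the 4 dimmest bins and reaches 0.08 in the brightest, and the bright core genes scatter around it, whereas Rplp2, Rpl30, Rpl3l and Rpl10l lie below it at the dim end.

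The core genes were highest on ethanol array 2 and lowest on saline array 2. Taking each gene's deviation from its own mean, the median over the 35 core genes was 0.04, 0.11 and -0.02 on ethanol arrays 1, 2 and 3, and -0.03, -0.08 and -0.03 on saline arrays 1, 2 and 3. Ethanol array 3 lay close to the saline arrays, although the medians did not overlap. Ethanol array 2 was the highest array for 20 of the 42 genes, and saline array 2 the lowest for 14. These were also the arrays with the widest and narrowest spread over all rows, with SDs of 2.03 and 1.97. Without both, a choice made after seeing the data, 29 of 42 genes were above 0 with a median of 0.05, beside 51.2% of all genes. Leaving out 1 array, the median was 0.06 without ethanol array 2, 0.09 without saline array 2 and 0.07 without saline array 1.

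**Figure D2:**
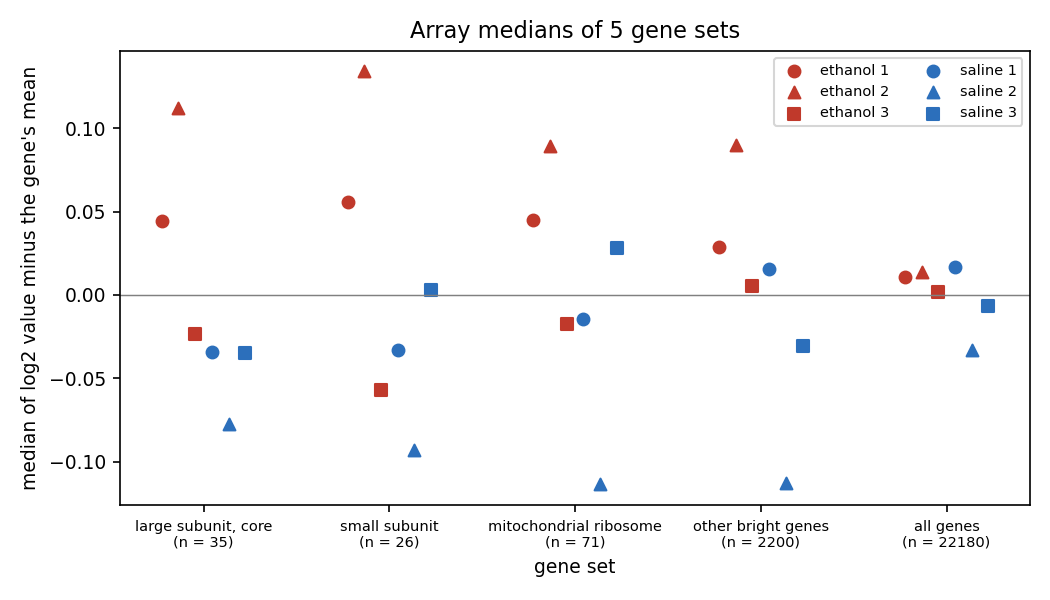
Median over the genes of a set of the log2 value minus the gene's mean over 6 arrays, 1 point per array, for the core large subunit genes, small subunit genes, mitochondrial ribosome genes, other genes of the brightest bin and all genes. Ethanol array 2 is the highest and saline array 2 the lowest point in each of the first 4 sets, and the core large subunit points run from -0.08 to 0.11.

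The stalk is the lateral arm that docks elongation factors, with Rplp0 as its base and Rplp1 and Rplp2 as its paired tips. Rplp0 (chromosome 5, 115559467 to 115563729) stood at 8.11, 8.07 and 7.74 on ethanol arrays 1 to 3 and at 7.67, 7.65 and 7.87 on saline arrays 1 to 3. Ethanol arrays 1 and 2 were above all saline arrays and ethanol array 3 was among them, for a difference of 0.25 ± 0.12 (limma adjusted p = 0.857). Another, dimmer row of Rplp0 differed by -0.03 ± 0.12. Rplp1 stood at 11.57, 11.49 and 11.44 in ethanol and at 11.69, 11.30 and 11.28 in saline. Saline array 1 was the highest of the 6 and the other saline arrays the lowest, so the groups overlapped at a difference of 0.08 ± 0.12. Without saline array 1 it was 0.21 (unadjusted p = 0.0445 in limma), and without saline array 3 it was 0.01. Rplp2 (chromosome 7, 141447651 to 141451359) stood at 5.56, 5.56 and 4.88 in ethanol and at 5.32, 5.60 and 5.99 in saline. It had the widest spread within groups of the stalk genes, with SDs of 0.39 in ethanol and 0.33 in saline (n = 3), through a low ethanol array 3 and a high saline array 3, and the difference of -0.30 ± 0.24 was smaller than either SD. Without ethanol array 3 it was -0.08, without saline array 3 -0.13, and without saline array 1 -0.46. The rows of the stalk genes thus had no common direction, and none passed the test. The Rplp2 row was dim, with a mean of 5.49 (percentile 27.6 of all rows), beside 11.46 (percentile 99.1) for Rplp1. How well so dim a row follows its transcript was not tested.

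Rpl5 and Rpl11 form, with 5S ribosomal RNA, the particle that when unassembled binds Mdm2 and so stabilizes p53. Rpl5 stood at 6.80, 6.85 and 6.95 in ethanol and at 7.02, 6.55 and 6.94 in saline, a difference of 0.03 ± 0.13. Saline array 2 was the lowest and saline array 1 the highest. Rpl11 stood at 6.67, 6.55 and 6.61 in ethanol and at 6.65, 6.80 and 6.48 in saline, a difference of -0.04 ± 0.10. Both genes were flat beside their spread, with limma adjusted p of 0.969 and 0.957. Of the checkpoint genes downstream, Mdm2 differed by 0.11 ± 0.09, Mdm4 by -0.00 ± 0.08 and Cdkn1a, the p53 target that halts the cell cycle, by 0.12 ± 0.12. Trp53 had no row of its own.

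Rpl10a builds the L1 stalk, which guides spent transfer RNA out of the ribosome. It stood at 8.54, 8.61 and 8.22 in ethanol and at 8.55, 8.28 and 8.61 in saline. Ethanol array 3 and saline array 2 were low and the other 4 arrays lay close together, at a difference of -0.02 ± 0.14.

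Rpl3 and Rpl8 reach towards the peptidyl transferase centre, where peptide bonds are made. Rpl8 stood at 9.19, 9.38 and 9.23 in ethanol and at 9.03, 8.96 and 9.19 in saline, a difference of 0.20 ± 0.10, with ethanol array 1 and saline array 3 level with each other. Rpl3 (chromosome 15, 80077781 to 80083406) had 3 rows that disagreed. Its brightest row stood at 9.61, 9.58 and 9.44 in ethanol and at 9.48, 9.25 and 9.11 in saline, and only saline array 1 reached into the ethanol range. The row of middle brightness went the other way, at 7.63, 7.79 and 7.92 in ethanol and 7.77, 8.41 and 8.23 in saline, a difference of -0.36 ± 0.17, and the dimmest differed by 0.04 ± 0.21. With the mean of the 3 rows the difference was -0.02, against 0.26 for the brightest. None of these differences passed the test, and Rpl3 has no single direction here.

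At the interface that meets the small subunit, Rpl41, one of the shortest proteins known, stood at 11.43, 11.48 and 11.26 in ethanol and at 11.40, 11.20 and 11.25 in saline, a difference of 0.11 ± 0.10. Its 5 rows ran from -0.01 ± 0.08 for the dimmest to 0.25 ± 0.12. Rpl30, which forms a bridge between the subunits, stood at 4.998, 5.243 and 4.606 in ethanol and at 5.213, 4.998 and 5.276 in saline. Ethanol array 3 lay below the other 5 arrays, and the difference of -0.21 ± 0.17 was smaller than the ethanol SD of 0.32 (n = 3). It was -0.04 without ethanol array 3 and -0.36 without ethanol array 2. The Rpl30 row was also dim, with a mean of 5.06 (percentile 21.6 of all rows).

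The 8 measured proteins of the exit tunnel and its rim were all above 0, beside 57.2% of all genes and 92.7% of the other genes of the brightest bin. Their median difference was 0.11, with a range of 0.05 to 0.15. The upper end was Rpl23a, a docking site at the tunnel mouth for the signal recognition particle, at 9.76, 9.84 and 9.71 in ethanol and 9.63, 9.61 and 9.63 in saline. Every ethanol array lay above the narrow saline range, and the difference of 0.15 ± 0.07 did not pass the test (limma adjusted p = 0.857). Its 2 rows held identical values and are 1 measurement. Rpl4, which lines the narrowest part of the tunnel, differed by 0.10 ± 0.08, Rpl35 at the rim by 0.10 ± 0.08 and Rpl19 by 0.13 ± 0.09, in each case with groups that overlapped. A dimmer row of Rpl35 differed by 0.23 ± 0.10, with every ethanol array above every saline array, and its dimmest row by 0.04 ± 0.17. Rpl17, Rpl22, Rpl26 and Rpl39 differed by 0.12 ± 0.10, 0.05 ± 0.09, 0.12 ± 0.13 and 0.07 ± 0.11. Without ethanol array 2 Rpl22 was at -0.01, and without saline array 1 Rpl39 was at -0.03.

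Of the other 17 core proteins, which form the body of the subunit, 16 had differences above 0, with a median of 0.12. The background was 57.2% of all genes and 92.7% of the other genes of the brightest bin. Rpl34 (chromosome 3, 130726827 to 130730398), a small structural protein of the subunit, stood at 8.022, 7.867 and 8.005 in ethanol and at 7.668, 7.680 and 7.864 in saline. The groups did not overlap, but ethanol array 2 was barely above saline array 3, and the difference was 0.23 ± 0.09 (unadjusted p = 0.0404 and adjusted p = 0.857 in limma). Leaving out 1 array left it between 0.19 and 0.29. Rpl38, whose loss in the mouse alters the translation of Hox messenger RNAs, stood at 10.28, 10.41 and 10.05 in ethanol and at 10.18, 9.86 and 9.97 in saline. Its difference of 0.24 ± 0.13 was set mainly by the arrays numbered 2, the highest and the lowest, and without both it was 0.09. Rpl6 and Rpl15 had groups that did not overlap. Rpl6 stood at 6.29, 6.31 and 6.40 in ethanol and 6.25, 6.08 and 6.16 in saline, a difference of 0.17 ± 0.08. Rpl15, which is among the genes mutated in Diamond-Blackfan anaemia, stood at 10.94, 11.08 and 10.88 in ethanol and 10.84, 10.82 and 10.79 in saline, a difference of 0.15 ± 0.08, or 0.10 without ethanol array 2. Rpl37a was the 1 gene of these 17 below 0, at 7.38, 7.45 and 7.14 in ethanol and 7.52, 7.32 and 7.28 in saline (-0.05 ± 0.11).

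Rpl7 and Rpl9 owed their differences to 1 array. Rpl7 stood at 9.66, 9.81 and 9.65 in ethanol and at 9.16, 9.80 and 9.68 in saline, and Rpl9 at 9.15, 9.09 and 9.01 in ethanol and at 8.52, 9.21 and 9.14 in saline. In both genes saline array 1 was far below the other 5 arrays, which lay close together. With it the differences were 0.16 ± 0.17 and 0.12 ± 0.18, and without it -0.04 and -0.09. Rpl9 was chosen for description after its values were seen.

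**Figure D3:**
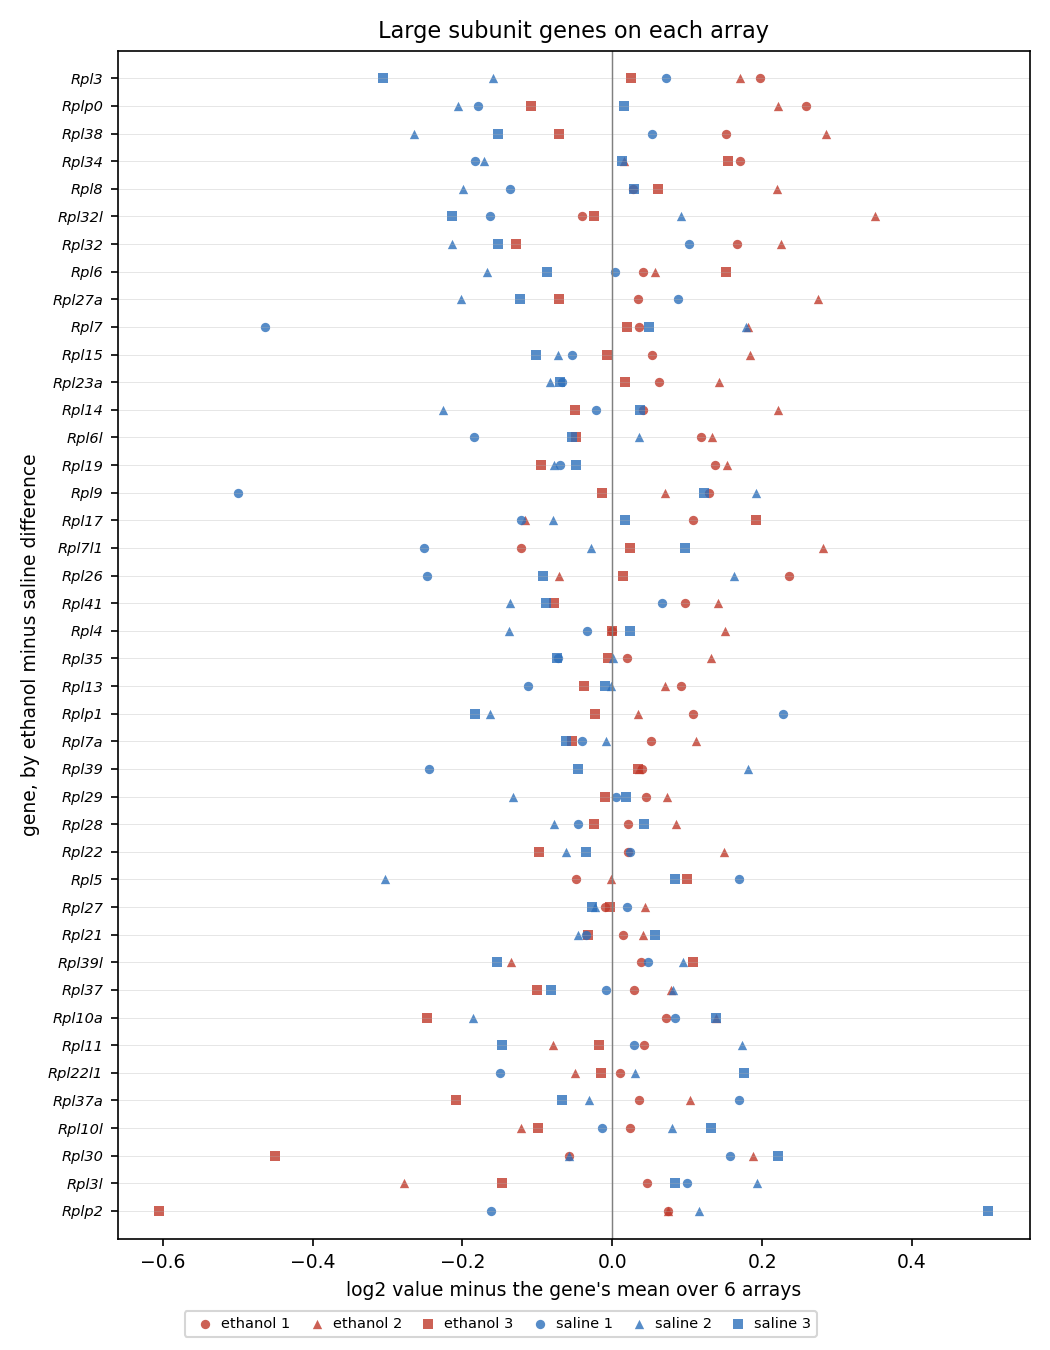
Log2 value of each of the 42 large subunit genes on each array minus the gene's mean over 6 arrays, with genes ordered by the ethanol minus saline difference, ethanol in red and saline in blue, and the marker shape giving the array number. Red lies to the right of blue without overlap for Rpl34, Rpl6, Rpl15 and Rpl23a, saline array 1 stands alone at the left for Rpl7 and Rpl9, and Rpl3l has all red points left of the blue ones.

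Some paralogs of large subunit genes are known mainly from restricted tissues. Rpl3l replaces Rpl3 in heart and skeletal muscle. It lies on chromosome 17 from 24727826 to 24736143 and stood at 6.27, 5.94 and 6.07 in ethanol and at 6.32, 6.41 and 6.30 in saline. All ethanol arrays lay below the saline arrays, ethanol array 1 narrowly so, and the difference was -0.25 ± 0.10 (unadjusted p = 0.0420 and adjusted p = 0.857 in limma). It stayed between -0.34 and -0.18 when 1 array was left out. The rows of its partner Rpl3 disagreed, as described above, and the difference between the partners was not tested. Rpl10l, a testis gene that stands in for Rpl10 in male germ cells, was dim, at 4.49, 4.35 and 4.37 in ethanol and 4.46, 4.55 and 4.60 in saline, a difference of -0.13 ± 0.08 with groups that overlapped through ethanol array 1.

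Rpl22l1, which can take the place of Rpl22 in the ribosome, stood at 5.78, 5.72 and 5.75 in ethanol and at 5.62, 5.80 and 5.94 in saline (-0.04 ± 0.10), the narrow ethanol range lying inside the saline range. Rpl22 stood at 7.33, 7.46 and 7.21 in ethanol and at 7.33, 7.25 and 7.28 in saline (0.05 ± 0.09), with the saline range inside the ethanol one. Rpl39l, the paralog of the small tunnel protein Rpl39, stood at 7.11, 6.94 and 7.18 in ethanol and at 7.12, 7.17 and 6.92 in saline, a difference of 0.01 ± 0.10. Rpl39 itself was nearly equal on the ethanol arrays, at 6.73, 6.72 and 6.72, and spread over 6.44, 6.87 and 6.64 in saline. Rpl7l1 stood at 7.780, 8.182 and 7.925 in ethanol and at 7.649, 7.873 and 7.998 in saline (0.12 ± 0.14), with ranges that overlapped. Without ethanol array 2 the difference was 0.01, and without saline array 1 it was 0.03. Over the 5 paralogs, 2 were above 0 and the median was -0.04, whereas 30 of 35 core genes were above 0 with a median of 0.10. The paralogs were also dimmer, with a median level of 6.22 against 9.38, and the part of brightness in this contrast was not tested. The copy Rpl6l stood at 9.38, 9.40 and 9.22 in ethanol and 9.08, 9.30 and 9.21 in saline (0.14 ± 0.09). Rpl32l, near the floor of the arrays at 2.96, 3.35 and 2.97 in ethanol and 2.84, 3.09 and 2.79 in saline, differed by 0.19 ± 0.14.

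For 15 of the 42 genes more than 1 row carried the name, and for 14 the rows held distinct values, the identical rows of Rpl23a being taken once. In 5 of the 14 all rows had differences above 0, in 9 the rows had both signs and in 0 all were below. Of the 21 distinct rows beyond the brightest, 12 were above 0 and 9 below. Rpl27 had rows that differed in sign and in overlap. Its brightest row stood at 9.54, 9.59 and 9.54 in ethanol and 9.57, 9.52 and 9.52 in saline (0.02 ± 0.07), while its other row was below every saline array on every ethanol array, at 6.57, 6.50 and 6.61 against 6.77, 6.68 and 6.74 (-0.17 ± 0.07). Rows of 1 gene can probe different exons or processed pseudogenes of the gene, of which this family has many, so values of the large subunit genes are uncertain to that extent. Using the mean of all rows of a gene, 32 of 42 genes were above 0 with a median of 0.08.

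**Figure D4:**
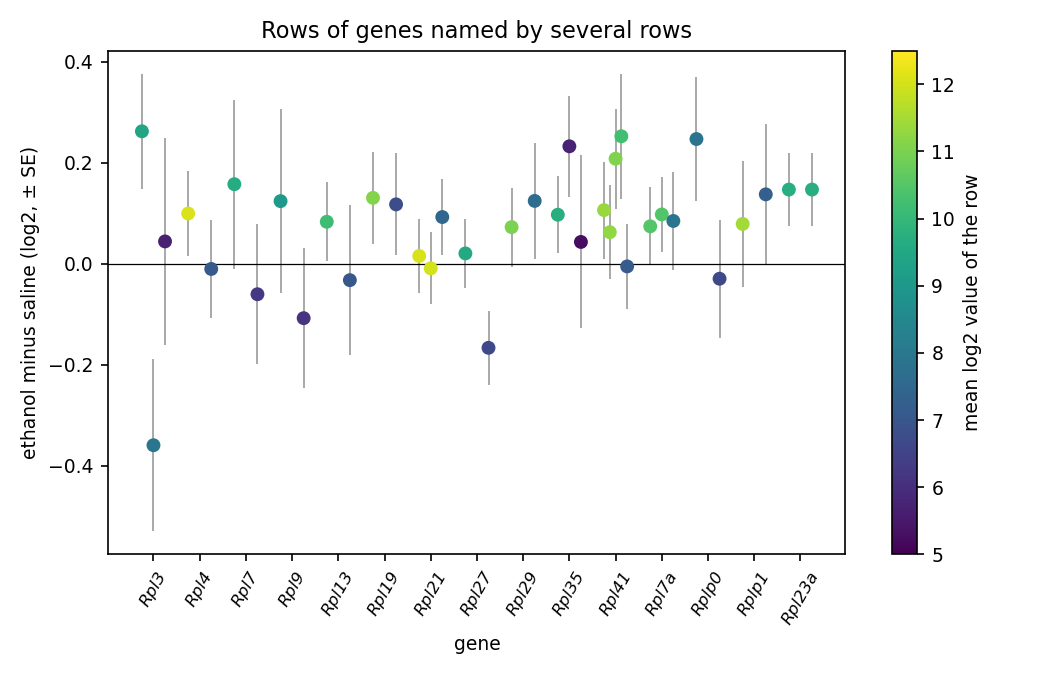
Ethanol minus saline difference (log2, error bars ± SE) of every row of the 15 large subunit genes named by more than 1 row, ordered from the brightest row at the left of each gene and coloured by the row's mean log2 value. The rows of Rpl3 run from -0.36 to 0.26, those of Rpl41 from -0.01 to 0.25, and the 2 rows of Rpl23a are identical.

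Other genes of the translation machinery were also mostly above 0. The shares were 81.8% to 92.9% in the lists below, beside 81.0% of the large subunit genes and 57.2% of all genes. Their medians were smaller than the 0.10 of the large subunit genes. Median levels ran from 7.91 to 9.91 in these lists, against 8.75 for the large subunit genes, and the part of brightness was not tested. Of 26 small subunit genes 23 were above 0, with a median of 0.07, and Rps13 came nearest to the threshold at 0.29 ± 0.13 (unadjusted p = 0.0540 in limma). Of 71 mitochondrial ribosome genes, which serve a separate ribosome, 63 were above 0 with a median of 0.07, and Mrps16 was at 0.24 ± 0.07 (unadjusted p = 0.0128 in limma). Of 14 measured genes of translation factors and other products whose messenger RNAs carry the same pyrimidine start, 12 were above 0 with a median of 0.04. Among them were the elongation factors Eef1a1 and Eef2, both at 0.04, with SEs of 0.08 and 0.07, and Vim, an intermediate filament protein of glia, at 0.19 ± 0.07 (unadjusted p = 0.0350 in limma). Of 22 genes of ribosome assembly 18 were above 0 (median 0.05), and of 14 genes of the mTOR pathway and growth control 13 (median 0.06). Mtor was at 0.07 ± 0.07, Rheb, its activator, at 0.15 ± 0.08 and Larp1 at 0.04 ± 0.08. Also of this list, Akt1s1 was at 0.14 ± 0.09, Tsc1 at 0.06 ± 0.08 and Eif4ebp2, the 1 gene below 0, at -0.02 ± 0.08. Rps6 was counted both here and among the small subunit genes. None of these genes passed the test after adjustment in limma, and no test was made between these lists and the large subunit genes.

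Markers of some cell types were also above 0. All 8 astrocyte markers were above 0, with a median of 0.11 and Aqp4 at 0.26 ± 0.07, and their summed linear values ran from 18136 to 19920 in ethanol and from 16856 to 18851 in saline. Of the 10 measured cerebellar neuron markers 8 were above 0, with a median of 0.06. Every ethanol array lay above every saline array for 2 of the 10 and below for 1, Barhl1, at -0.17 ± 0.08. The sums over the 10 markers, from 29379 to 30262 in ethanol and from 27986 to 28285 in saline, did not overlap. The astrocyte and cerebellar lists had median levels of 10.33 and 11.52, in the range of the brightest bin. There 92.7% of the other 2200 genes were above 0, with a median of 0.08. Every ethanol array lay above every saline array for 284 of those 2200 genes. No background was computed for the sums. Of the 11 measured hippocampal neuron markers 5 were above 0 (median -0.02, sums from 1608 to 1645 in ethanol and 1596 to 1744 in saline). Every ethanol array lay below every saline array for 2 of the 11, beside 4.72% of all genes, and above for 0. The 2 were Fibcd1 at -0.22 ± 0.08 and Iyd at -0.19 ± 0.08 (unadjusted p = 0.0301 and 0.0362, adjusted p = 0.857 for both in limma). Of 7 measured oligodendrocyte markers 6 were above 0 (median 0.03, sums from 13043 to 16808 in ethanol and from 13258 to 16009 in saline). Of 7 measured microglial markers 4 were above 0 (median 0.01, sums from 1906 to 2023 and from 1862 to 2106). Of 6 red blood cell markers only Slc4a1 was measured, at -0.12 ± 0.13. No row was at 0. The part of cell composition in the large subunit values was not tested.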

How the data were processed

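The authors deposited 1 table of log2 values, summarized per probe row, with 41345 rows and a column for each of 6 arrays. The log2 scale was read from the values, which run from 1.80 to 13.89. Total RNA (200 ng) was amplified and biotin-labelled, per the labels' protocols. How background was corrected and rows were summarized and normalized is not given in the sources used here. Per the submitters' processing notes the build was mm10. By the platform annotation, 23521 rows named 1 gene, 1814 several and 16010 none here. All 42 large subunit genes matched RefSeq's GRCm38.p6 table by Entrez identifier, with the same symbol. Promoter windows are RefSeq's.

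All rows were fitted without covariates (limma 3.58.1, R 4.3.3; lmFit, then eBayes; two-sided tests; Benjamini-Hochberg over all rows, threshold 0.05, with 4 residual and 2.94 prior degrees of freedom), after a check on simulated data. SEs are the fit's, errors on means are SDs, and precision is limited by there being 3 arrays a group. Nothing says whether pools with the same number were related. The genes, lists and naming rule were chosen with earlier results of these data known. Values on every array are given for genes past an unadjusted p under 0.05, for the 5 highest and 5 lowest differences, for paralogs and their partners, and for the stalk, 5S and L1 stalk genes; those of Rpl6, Rpl6l, Rpl9, Rpl15, Rpl23a, Rpl27, Rpl32l and Rpl41 were added after they were seen. Of related lists, differences alone are given, for genes past an unadjusted p under 0.05. Those of Rps13, Eef1a1, Eef2, Mtor, Rheb, Larp1, Akt1s1, Tsc1, Eif4ebp2, Mdm2, Mdm4 and Cdkn1a were added after they were seen. The markers Aqp4, Fibcd1, Iyd, Barhl1 and Slc4a1 were also named after their values were seen. Among these markers Aqp4, Fibcd1 and Iyd were past that threshold. Alternatives covered scaling, the limma prior, array weights, filters on rows, the row per gene, the replicate number as a block and leaving out each array.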

Additional observations from a re-analysis of the deposited data

How the results depend on the processing

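Under every alternative run, limma called 0 of the 42 genes at an adjusted p under 0.05. At an unadjusted p under 0.05 it passed 2 in the fit as reported, 5 by the prior with a trend, 1 without both arrays numbered 2 (Rpl30), 1 among the core genes alone and 0 to 4 leaving out 1 array: 0 without saline array 2, 4 without saline array 1, and 1 without ethanol array 1 or 2. Which genes passed differed between settings. The genes above 0 numbered 29 to 37 with all 42 in the fit, the highest with median centring, which raised the median of all genes from 0.02 to 0.06. The median difference of 0.098 became 0.0492 after cyclic loess and 0.0474 without both arrays numbered 2, and 0.0624 to 0.123 leaving out 1 array. In 16 settings that kept all 42 genes, 21 kept 1 sign throughout, 17 above 0 and 4 below. Some of these settings could turn no sign. The prior with a trend, the robust prior, rows naming 1 gene and the replicate block leave every fitted difference as it is. Among 25 genes followed singly, signs turned for 15 values with no single array left out, mostly of differences near 0. With quantile normalization Rpl11 was at 0.00266, Rpl22l1 at 0.00434 and Rpl27 at -0.0462. With median centring Rpl10a was at 0.0145, Rpl11 at 0.00251 and Rpl22l1 at 0.00176. After cyclic loess Rpl22l1 was at 0.00777, Rpl27 at -0.0534 and Rplp1 at -0.00868. Without both arrays numbered 2, Rpl5 was at -0.101, Rpl11 at 0.0716, Rpl22 at -0.0333 and Rpl27 at -0.00283. With the mean of all rows of a gene Rpl3 was at -0.0178 and Rpl27 at -0.0732. The cause of these turns was not tested.

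Leaving out 1 array, the differences ran from -0.123 to 0.0928 for Rpl10a, -0.119 to 0.0410 for Rpl11, -0.0144 to 0.109 for Rpl22, -0.122 to 0.0417 for Rpl22l1, -0.110 to 0.0460 for Rpl37a, -0.0313 to 0.182 for Rpl39, -0.0676 to 0.0768 for Rpl39l, -0.110 to 0.127 for Rpl5, -0.0351 to 0.286 for Rpl7 and -0.0949 to 0.251 for Rpl9. With 1 sign throughout they ran from -0.460 to -0.0767 for Rplp2, -0.360 to -0.0416 for Rpl30, 0.00685 to 0.212 for Rplp1, 0.0122 to 0.213 for Rpl7l1, 0.00366 to 0.0354 for Rpl27, 0.175 to 0.363 for Rpl3, 0.161 to 0.340 for Rpl38 and 0.0992 to 0.195 for Rpl15. Deviations from the group means correlated at 0.101, -0.0564 and 0.0380 over all rows for arrays with the same number. For arrays with unlike numbers they correlated between -0.128 and 0.0992. With 3 arrays a group, these values cannot tell whether pools with the same number were related. With the replicate block the median difference was 0.098 and 1 gene, Rpl3, had an unadjusted p under 0.05 (0.0366), while Rpl34 was at 0.0568 and Rpl3l at 0.0723 in limma.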
